A study of Mus musculus with 14 samples.

Results

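The 35 genes described here are the genes by which T cells and intraepithelial lymphocytes of the gut are recognised: the CD3 chains, the CD8 and CD4 coreceptors, receptor-proximal signalling proteins, surface receptors, homing receptors, granule and killing proteins, chemokines and a pair of regulators. They were chosen by name, and each was read from its single-symbol probe set with the highest mean, on a log2 intensity scale. Of the 35 genes, 33 were measured, against 22180 genes on the whole array, and each of the 33 had 1 probe set. Cd247 and Lck are not analysed here. Ubash3a, a suppressor of T cell receptor signalling, was below the limit for dim genes, with log2 intensities of 5.90 to 6.29 in K289R and 5.82 to 6.37 in WT. The remaining 32 entered the test with 18010 genes in all.

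Jejunum was taken from 7 mice with LRH-1 K289R and from 7 mice with LRH-1 WT, 1 Affymetrix whole-transcript array per mouse. LRH-1, the product of Nr5a2, is a nuclear receptor found in gut, liver and pancreas, and in K289R an arginine stands in place of a lysine that can carry the small modifier SUMO. All 14 mice were 19 to 21 weeks old, ate at will until they were killed at 7 am, and were kept in shared cages. No label gives strain, sex, how the allele was made or which stretch of the jejunum was cut. The series title names liver transcripts, while every sample label names jejunum. The epithelial marker Vil1, which encodes villin of the brush border, had log2 intensities of 12.88 to 13.03 in K289R and 12.92 to 13.10 in WT. Over all genes, r was 0.979 to 0.994 between a K289R and a WT array and 0.981 to 0.994 within a genotype.

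Intraepithelial lymphocytes sit between the absorptive cells of the villus. In the mouse small intestine most of them are T cells that carry CD8, many as a pair of alpha chains, and they bind E-cadherin of the epithelium through the integrin that Itgae helps to form. They are kept armed, with granzymes in store and with Ccl5 ready for release, while the T cells of the lamina propria below include many that carry CD4.

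In the jejunum, a subset of these genes differed widely among mice of the same genotype. Cd3e and 9 others (Cd3g, Cd8a, Cd7, Cd96, Itgae, Gzma, Gzmb, Nkg7 and Ccl5) moved together from mouse to mouse. The 9 were picked by their correlation with Cd3e within each genotype. That 4 of the 14 arrays were the lowest for all 10 genes follows in large part from that choice. No member passed the limma test between K289R and WT at an adjusted p of 0.05, the same test that called 0.0444% of all genes (8 of 18010). At an unadjusted p under 0.05 it named 1 member of 32, Klrd1, against 8.48% of all genes. Because whole tissue was measured, fewer cells of a type and less RNA per cell cannot be told apart in any of these values.

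Promoter sequence was read for the members that RefSeq's table of mouse promoters (assembly GRCm38.p6) held, 21 of the 33, as the 250 bases before the start. Cd8b1, Cd4, Cd2, Cd6, Cd7, Cd28, Cd69, Thy1, Itgae, Klrd1, Ccl5 and Il2rb had no match. The sequences of Cd3e, of the 3 matched genes closest to it from mouse to mouse (Nkg7, Cd8a and Cd3g) and of 2 looser ones (Ccr9 and Cxcr3) are shown so that genes that moved together can be set beside genes that did so less. Capitals mark any match, on either strand, to the letters TGNGGT (a RUNX core), AGGAAG (ETS), AGGTGT (T-box), CAGNTG (E-box) or TGACGT (a cyclic AMP response core), where N is any base. T-box and E-box letters can overlap, as they do in Cd3g. The windows are chr9:45009612-45009861 on the minus strand for Cd3e, chr7:43436888-43437137 on the plus strand for Nkg7, chr6:71373177-71373426 on the plus strand for Cd8a, chr9:44980432-44980681 on the minus strand for Cd3g, chr9:123766961-123767210 on the plus strand for Ccr9, and chrX:101734148-101734397 on the minus strand for Cxcr3.
Cd3e: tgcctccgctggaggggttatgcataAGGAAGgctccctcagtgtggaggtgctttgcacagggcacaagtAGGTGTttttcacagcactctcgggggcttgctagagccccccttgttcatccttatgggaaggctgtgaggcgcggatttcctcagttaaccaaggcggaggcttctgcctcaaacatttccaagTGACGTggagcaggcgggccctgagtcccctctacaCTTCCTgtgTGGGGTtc
Nkg7: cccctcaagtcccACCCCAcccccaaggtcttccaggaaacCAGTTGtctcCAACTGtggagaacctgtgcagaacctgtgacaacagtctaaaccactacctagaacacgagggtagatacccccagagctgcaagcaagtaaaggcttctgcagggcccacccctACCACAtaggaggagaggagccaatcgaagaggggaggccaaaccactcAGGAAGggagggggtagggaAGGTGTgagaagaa
Cd8a: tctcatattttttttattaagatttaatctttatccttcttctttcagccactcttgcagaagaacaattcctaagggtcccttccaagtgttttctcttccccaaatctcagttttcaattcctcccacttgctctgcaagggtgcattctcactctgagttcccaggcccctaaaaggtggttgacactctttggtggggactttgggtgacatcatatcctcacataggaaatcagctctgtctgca
Cd3g: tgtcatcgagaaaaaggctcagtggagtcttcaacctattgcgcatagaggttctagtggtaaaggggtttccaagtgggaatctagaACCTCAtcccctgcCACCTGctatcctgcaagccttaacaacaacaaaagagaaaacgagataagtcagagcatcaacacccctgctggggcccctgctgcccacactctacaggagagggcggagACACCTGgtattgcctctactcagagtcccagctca
Ccr9: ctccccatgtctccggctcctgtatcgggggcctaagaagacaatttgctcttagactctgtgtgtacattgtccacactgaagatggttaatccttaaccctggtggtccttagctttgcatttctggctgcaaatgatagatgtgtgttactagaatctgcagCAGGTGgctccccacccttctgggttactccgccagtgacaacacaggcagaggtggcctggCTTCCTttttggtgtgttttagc
Cxcr3: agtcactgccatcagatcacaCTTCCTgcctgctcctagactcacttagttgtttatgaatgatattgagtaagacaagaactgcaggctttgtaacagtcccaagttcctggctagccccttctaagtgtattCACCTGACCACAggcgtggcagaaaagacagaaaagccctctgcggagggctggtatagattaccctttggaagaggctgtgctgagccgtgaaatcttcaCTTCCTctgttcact

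RUNX letters stood in 15 of the 21 member windows, against 39.9% of all 27025 promoter windows of that length. ETS letters stood in 14 of 21 (29.2% of all promoters), T-box letters in 7 (12%), E-box letters in 14 (44.5%) and the cyclic AMP core in 4 (6.56%). Among the 7 matched genes of the Cd3e group the counts were 6 for RUNX, 2 for ETS, 4 for T-box, 4 for E-box and 1 for the cyclic AMP core. Among the 14 other matched members they were 9, 12, 3, 10 and 3 in the same order. The Cd8a window held none of these letters, and Cxcr3 and Ccr9 held letters of the same kinds as genes of the group. A match of letters is a description of the sequence and not a binding site.

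The CD3 chains carry the signal of the T cell receptor into the cell. Cd3e had log2 intensities of 8.40, 9.60 and 10.03 in K289R (lowest, median and highest of 7 arrays), against 8.29, 9.25 and 9.96 in WT. The genotypes covered the same span, with K289R replicate 2 and WT replicates 1, 6 and 7 at its low end. The mean difference was 0.40 with a standard error (SE) of 0.26 and a 95% interval of -0.16 to 0.95, with 6 of 7 K289R arrays above the WT mean (limma, adjusted p = 0.684). Cd3g, the gamma chain, had 8.09, 9.49 and 10.51 in K289R and 8.0, 9.17 and 9.93 in WT, again with full overlap of the genotypes. Its difference was 0.58 with an SE of 0.33 (limma, adjusted p = 0.639), and its highest and lowest arrays were 5.70-fold apart. Cd3d, the delta chain, stayed within narrower limits, with 6.85, 7.54 and 7.72 in K289R and 7.27, 7.38 and 7.67 in WT. Its lowest value was that of K289R replicate 2, and the difference was 0.05 ± 0.11 (SE, limma adjusted p = 0.915).

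**Figure D1:**
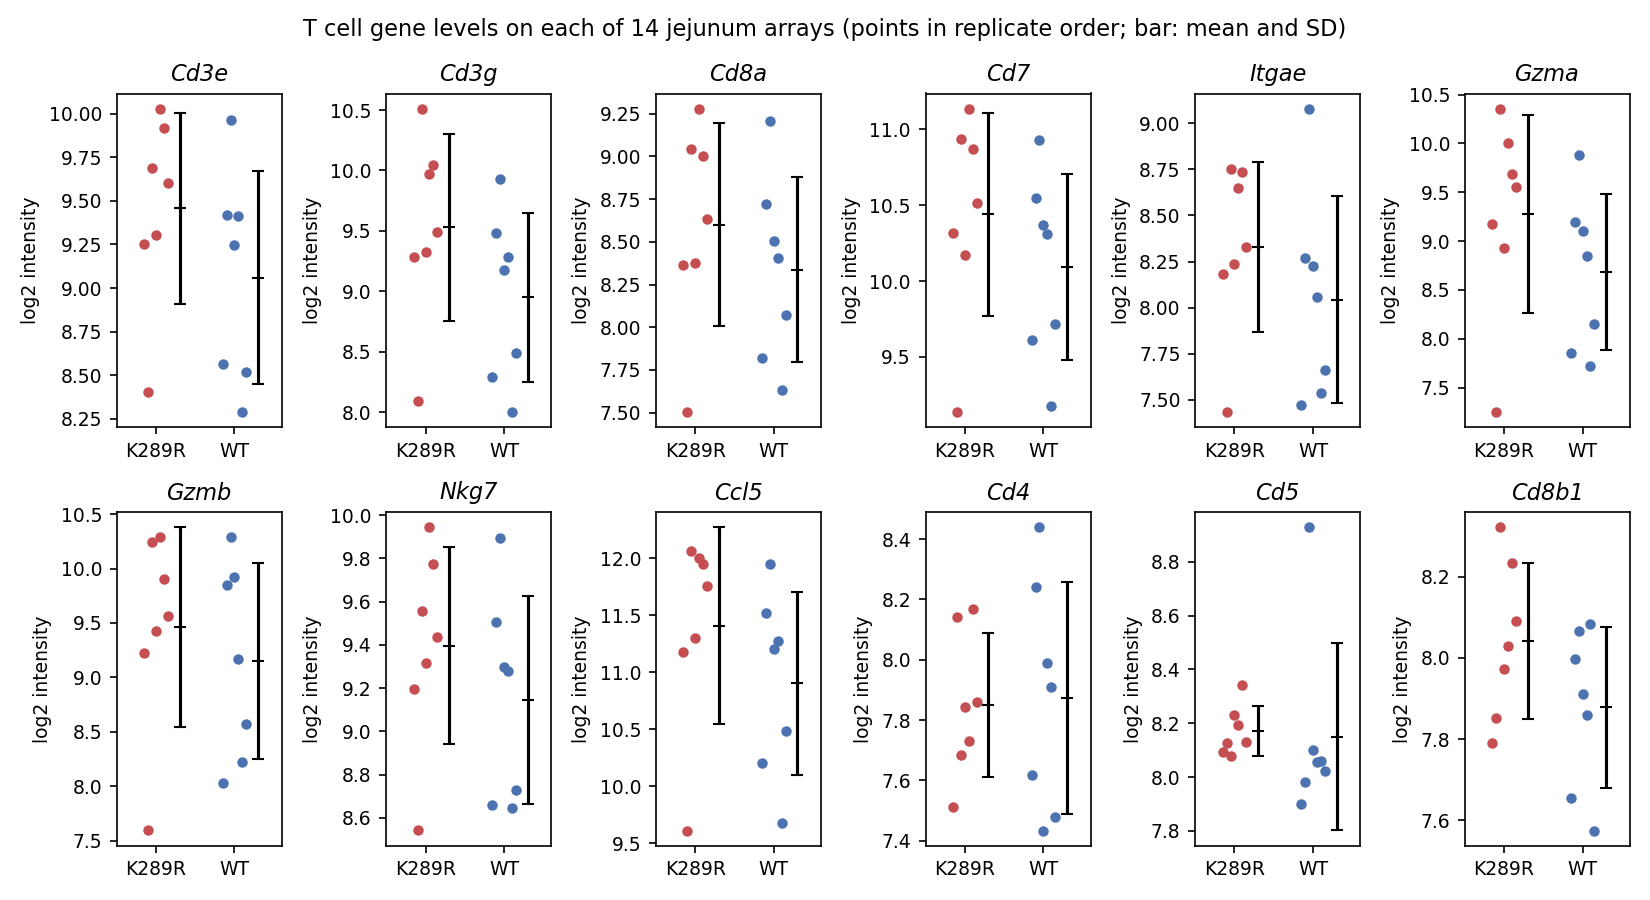
Log2 intensity on each array (vertical axis) of 12 T cell genes, with K289R left of WT, 7 points per genotype in replicate order and a bar for mean and SD. Points of the genotypes overlap in every panel, and in the Cd3e panel 1 K289R and 3 WT points lie between 8.29 and 8.56, below all others.

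Among the coreceptors, Cd8a had the widest spread among mice. Cd8a, which encodes the alpha chain found on most intraepithelial T cells, had 7.50, 8.63 and 9.28 in K289R and 7.63, 8.41 and 9.21 in WT. The same 4 arrays were lowest, and the difference of 0.26 ± 0.26 (SE) gave an adjusted p of 0.784 in limma. Cd8b1, the beta chain that pairs with alpha on conventional cytotoxic T cells, ranged over 7.79, 8.03 and 8.32 in K289R and 7.58, 7.91 and 8.08 in WT. Here WT replicate 6, among the lowest for Cd8a, was the highest WT array. The Cd8b1 difference was 0.16 ± 0.09 (SE, limma adjusted p = 0.640). Cd4, the coreceptor of helper T cells, had 7.51, 7.84 and 8.17 in K289R and 7.43, 7.91 and 8.44 in WT, with K289R replicate 2 the second highest of its genotype at 8.14. Its difference was -0.02 ± 0.15 (SE, limma adjusted p = 0.973).

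Genes of receptor-proximal signalling lay closer together. Zap70, the kinase that docks on phosphorylated CD3 chains, averaged 7.60 ± 0.22 in K289R and 7.50 ± 0.22 in WT (SD, n = 7 each), a difference smaller than either SD. Lat, the membrane adaptor downstream of it, averaged 8.77 ± 0.17 in K289R and 8.68 ± 0.27 in WT. Txk, a Tec-family kinase of T cells, averaged 7.42 ± 0.31 in K289R and 7.23 ± 0.15 in WT. The adjusted p values of the 3 in limma were 0.790, 0.829 and 0.641.

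Of the 10 surface receptors, Cd7 and Cd96 had the widest spread among mice. Cd7, a co-receptor abundant on intraepithelial lymphocytes, had 9.14, 10.51 and 11.14 in K289R and 9.17, 10.31 and 10.93 in WT, a 4.00-fold span. Each genotype thus held both low and high mice, and the difference was 0.35 ± 0.29 (SE, limma adjusted p = 0.748). Cd96, a receptor of T and NK cells for poliovirus receptor family proteins, averaged 8.52 ± 0.50 in K289R and 8.07 ± 0.49 in WT (SD, n = 7 each). The difference of 0.45 had a 95% interval of -0.03 to 0.93 (limma, unadjusted p = 0.0640, adjusted p = 0.606). Cd69, an early activation and tissue retention marker, differed by 0.20 ± 0.12 (SE), and Cd160, a receptor of intraepithelial and NK cells for HVEM, by 0.13 ± 0.08. Cd28, the main costimulatory receptor of T cells, differed by 0.13 ± 0.10.

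The pan-T cell receptors showed almost no difference of means. Cd5, a brake on receptor signalling, had 8.08, 8.13 and 8.34 in K289R, against 7.90, 8.06 and 8.93 in WT. Cd6, its relative that binds ALCAM, had 7.70, 7.99 and 8.04 in K289R and 7.75, 7.81 and 8.66 in WT. For both, 1 array stood high, WT replicate 3, and the differences were 0.02 ± 0.12 and -0.00044 ± 0.12 (SE). Cd2, an adhesion receptor, differed by 0.01 ± 0.08, Cd27, a receptor of the TNF family, by -0.0011 ± 0.07, and Thy1, a surface glycoprotein of mouse T cells, by -0.05 ± 0.07. Their adjusted p values in limma were 0.974, 0.996 and 0.848.

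Itgae was the member of the homing group that varied. It encodes the alpha E integrin chain, and it had 7.43, 8.33 and 8.75 in K289R, against 7.47, 8.06 and 9.08 in WT. K289R replicate 2 lay apart from the next K289R array at 8.18, WT replicate 3 was the highest of all, and the difference was 0.29 ± 0.23 (SE, limma adjusted p = 0.738). Ccr9, the receptor for the small intestinal chemokine Ccl25, averaged 7.99 ± 0.17 in K289R and 7.93 ± 0.14 in WT (SD, n = 7 each). Cxcr3, a receptor for interferon-induced chemokines, averaged 7.94 ± 0.12 in K289R and 7.89 ± 0.12 in WT, and both differences were within the spread of the mice (limma, adjusted p = 0.831 and 0.832).

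Among the genes of killing, Gzma and Gzmb had the widest spans of all members, while the other 4 spanned 1.48-fold (Prf1) to 2.96-fold (Klrd1). Gzma, a granule protease, had 7.25, 9.55 and 10.36 in K289R and 7.72, 8.85 and 9.88 in WT, so that the lowest and highest mice were 8.60-fold apart. Both extremes were K289R arrays, replicates 2 and 3. The difference of 0.60, the largest among the members, had an SE of 0.41 and a 95% interval of -0.27 to 1.47 (limma, adjusted p = 0.697). Gzmb, the granzyme that cleaves caspases, had 7.59, 9.56 and 10.29 in K289R and 8.03, 9.17 and 10.29 in WT. Its difference was 0.31 ± 0.41 (SE, limma adjusted p = 0.844). Nkg7, a granule membrane protein of cytotoxic cells, had 8.54, 9.44 and 9.94 in K289R and 8.65, 9.28 and 9.90 in WT, with a difference of 0.25 ± 0.21 (SE, limma adjusted p = 0.750).

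Perforin did not spread in this way. Prf1, which encodes this pore-forming granule protein, had 7.26, 7.49 and 7.80 in K289R and 7.24, 7.46 and 7.62 in WT. Its difference was 0.03 ± 0.08 (SE, limma adjusted p = 0.942). Fasl, the ligand of the death receptor Fas, averaged 7.15 ± 0.28 in K289R and 7.01 ± 0.29 in WT (SD, n = 7 each). Klrd1, which encodes the CD94 chain that pairs with NKG2 receptors, had 7.39, 8.43 and 8.96 in K289R, against 7.54, 7.97 and 8.21 in WT. Of the 7 K289R arrays 6 lay above the highest WT array, while K289R replicate 2 was the lowest of all 14 arrays. The difference of 0.45 ± 0.18 (SE) corresponds to a 1.37-fold higher mean in K289R with a 95% interval of 1.05 to 1.79, but it did not pass the test over all genes (limma, unadjusted p = 0.0244, adjusted p = 0.499). Without K289R replicate 2 it was 0.62, with an adjusted p of 0.144 in limma.

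Ccl5, the chemokine stored by memory and intraepithelial T cells, had 9.61, 11.76 and 12.06 in K289R and 9.68, 11.21 and 11.95 in WT. The lowest array of each genotype was far below its median, and the span of all arrays was 5.48-fold. The difference was 0.51 ± 0.38 (SE, limma adjusted p = 0.716). Xcl1, a chemokine that attracts cross-presenting dendritic cells, averaged 7.89 ± 0.13 in K289R and 7.87 ± 0.19 in WT (SD, n = 7 each). Il2rb, the chain shared by the receptors for IL-2 and IL-15, averaged 8.09 ± 0.34 in K289R and 8.0 ± 0.27 in WT. Tbx21, the T-bet factor of type 1 lymphocytes, averaged 7.98 ± 0.10 in K289R and 7.97 ± 0.17 in WT.

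Taken as a list, 28 of the 32 tested members had a mean difference above 0, against 48.0% of all genes tested, and the median difference was 0.13, against -0.0039 over all genes. It was 0.084 without K289R replicate 6 and 0.23 with the smooth muscle list mean as a covariate. These genes are not independent of each other, since many moved together from mouse to mouse. Differences were also above 0 for 13 of 13 B cell, 6 of 6 endothelial, 8 of 8 pan-leukocyte and 6 of 6 MHC class II genes. They were above 0 for 11 of 14 macrophage and dendritic cell genes and for 5 of 11 epithelial genes. A lean above 0 was thus not particular to the T cell genes. The values of K289R and WT overlapped for all 32, and they did not overlap for 0.167% of all genes. The differences ranged from -0.05 for Thy1 to 0.60 for Gzma, and for 16 members at least 6 of the 7 K289R arrays were above the WT mean, as was so for 13.9% of all genes.

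**Figure D2:**
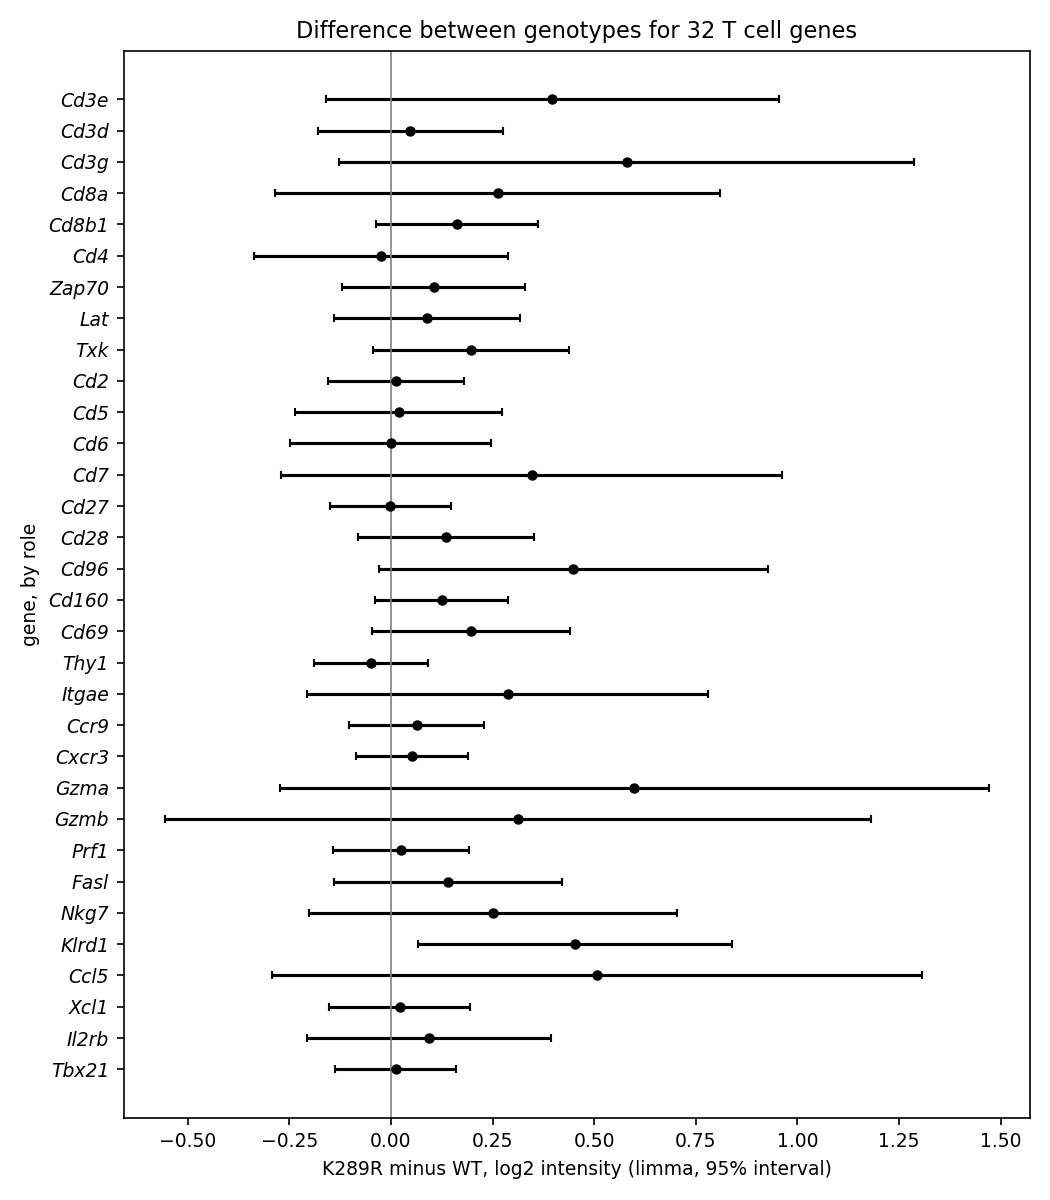
Difference K289R minus WT in log2 intensity (horizontal axis) for the 32 tested T cell genes, ordered by role, with limma's 95% interval as bars. The interval of Klrd1, 0.07 to 0.84, is the one that leaves out 0, and no gene passed after adjustment over all genes.

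The variation among mice of a genotype was large for these genes. The pooled within-genotype SD of 14 of the 32 exceeded 0.26, the 95th percentile of all tested genes, a limit that 5.0% of all genes exceed. Among lists of other genes, 9 of 13 B cell, 6 of 6 endothelial and 6 of 6 MHC class II genes exceeded it. Of epithelial genes 1 of 11 did, and of smooth muscle genes 0 of 9. A wide spread was thus not particular to the T cell genes. For 30 of the 32 members the SD exceeded the median of all genes, 0.13. From the lowest to the highest of the 14 arrays the median span of the members was 1.93-fold, against 1.38-fold for all genes. K289R replicate 2 was the lowest K289R array for 20 of 32 members and WT replicate 3 the highest WT array for 25. The shares of all genes for which these arrays were lowest or highest were not counted. A trait of the members and one of the whole array thus cannot be told apart here.

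The low end was set by 4 arrays. In the ordered Cd3e levels of all 14 mice the widest step, 0.68, lay between 8.56 and 9.25, and the next widest was 0.23. Below it were K289R replicate 2 (8.40) and WT replicates 6 (8.29), 7 (8.52) and 1 (8.56). For Cd3e and each of the 9 genes named with it above, these were the lowest 4 of the 14 arrays. The 9 genes were picked by their correlation with Cd3e on the same arrays, so this agreement follows in large part from that choice. How many of all genes have the same lowest 4 arrays was not counted. The other 10 arrays were 6 of K289R and 4 of WT.

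**Figure D3:**
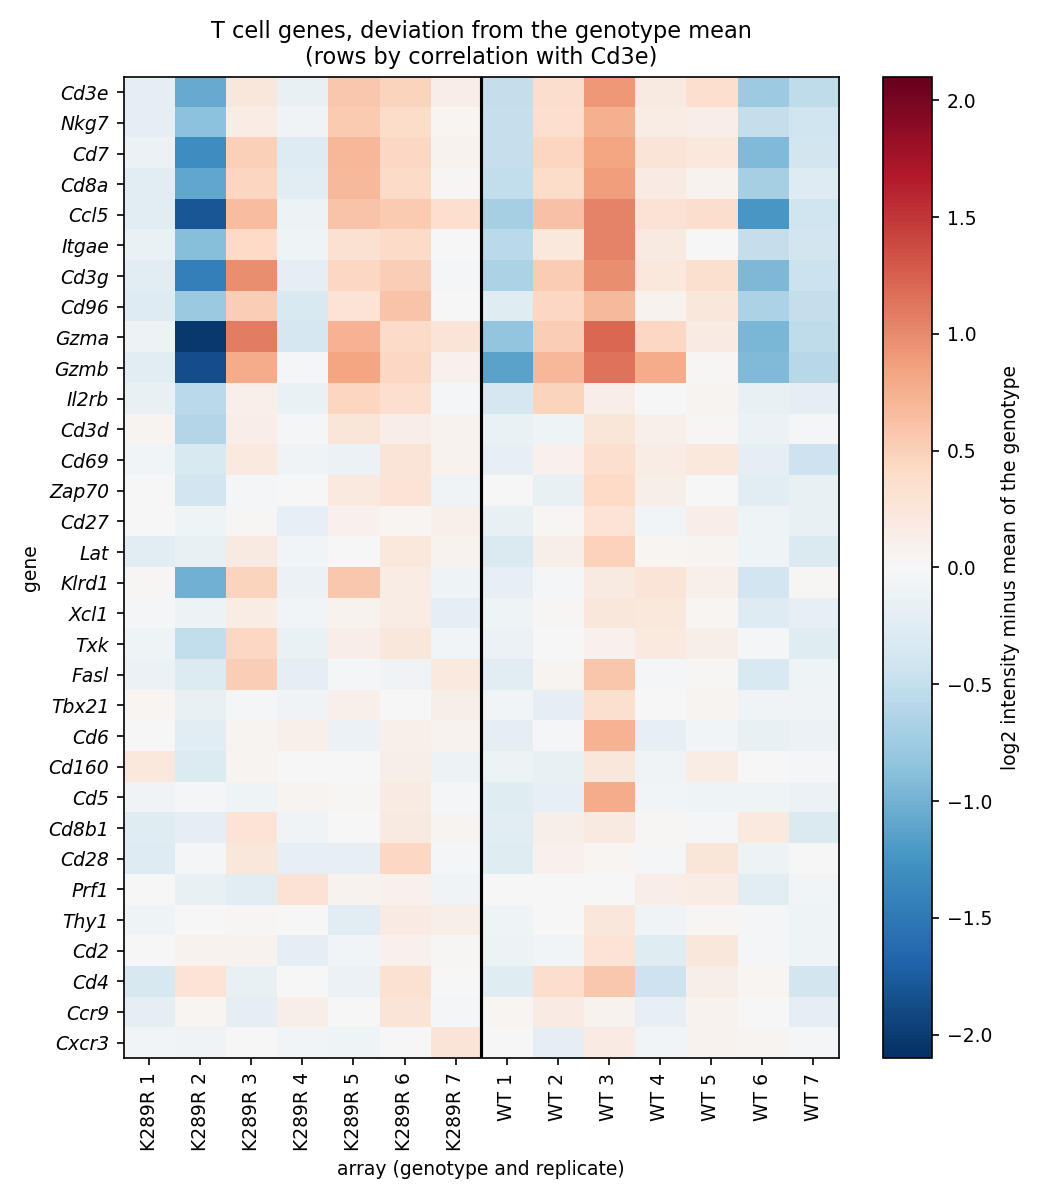
Deviation of each of the 32 genes from its genotype mean in log2 intensity (colour, blue for lower and red for higher), by array along the horizontal axis with K289R left of WT, and with genes ordered by their correlation with Cd3e. The upper 10 genes share the blue columns of K289R replicate 2 and of WT replicates 1, 6 and 7.

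Co-variation was measured against Cd3e within each genotype, so that no difference between genotypes entered. Of the 31 other members, 9 had an r of at least 0.8 both within K289R and within WT, against 0.389% of all genes (70 of 18009, of which 61 were not members). For these 9 genes r was between 0.907 and 0.993 in K289R and between 0.917 and 0.990 in WT, and Spearman's rho between 0.857 and 1 in K289R and between 0.786 and 1 in WT. Of the 9, Nkg7 followed Cd3e most closely within K289R, with r = 0.993 and rho = 1, and had r = 0.982 and rho = 0.929 in WT. Within WT, Cd3g was closest by r, at 0.990, and Cd96 by rho, at 1. As the 9 were picked by these r values, they are a description and no p is given for them. Over all 18009 genes computed per genotype, members included, no exact permutation p passed after Benjamini-Hochberg adjustment in either genotype. With 7 arrays there are 5040 pairings, and the smallest possible exact p is 0.000198. Adjusted over this many genes, such a p passes only if many genes share it, so no conclusion is drawn from this outcome. At an unadjusted exact p under 0.05 there were 14 of 31 members in K289R, where 4.71% of all genes were, and 19 of 31 in WT, where 6.59% were. Without the 2 arrays farthest from the median Cd3e level, r of the 9 genes lay between 0.703 and 0.979 in K289R and between 0.889 and 0.990 in WT.

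Since 4 arrays stood apart, the relation was also computed over the 10 arrays above the step, each value taken from its genotype mean. These 10 are part of the arrays by which the 9 genes were picked, so the values are a description and not an independent check. For the 9 genes r lay between 0.746 for Gzmb and 0.968 for Nkg7, and rho between 0.830 and 0.964. An unadjusted exact permutation p under 0.05 for r, over 17280 pairings, was reached by 13 of all 31 members, against 3.18% of all genes. No gene passed after adjustment, which the number of pairings again limits. In this narrower range 6 members had an r of at least 0.8 (Ccl5, Cd7, Cd8a, Cd96, Itgae and Nkg7), against 0.294% of all genes. The WT arrays above the step (4) and those below it (3) are too few for a correlation of their own.

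**Figure D4:**
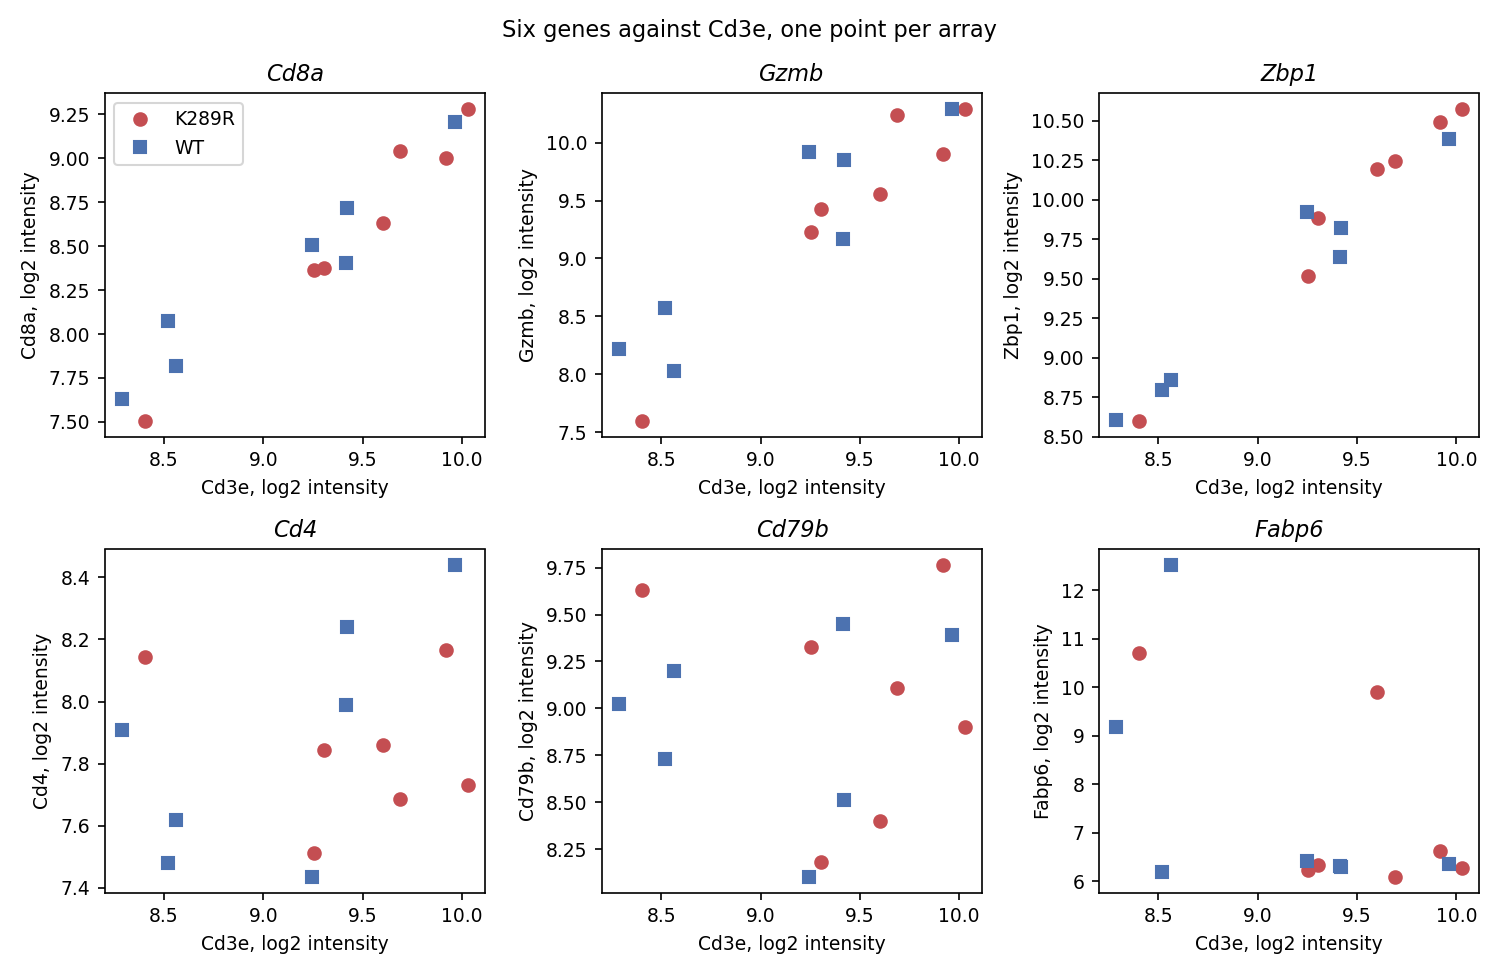
Log2 intensity of Cd8a, Gzmb, Zbp1, Cd4, Cd79b and Fabp6 (vertical axes) against that of Cd3e (horizontal axes), 1 point per array, K289R as circles and WT as squares. Cd8a goes up with Cd3e in both genotypes (r of 0.983 in K289R and 0.966 in WT), Cd79b has r of -0.192 in K289R and 0.110 in WT, and Fabp6 is above 9 on 4 arrays.

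For 1 log2 unit of Cd3e the 9 genes moved by 0.81 to 1.73 units in K289R and by 0.78 to 1.35 in WT. The other 22 members moved by -0.11 to 0.87 units in K289R and by 0.03 to 0.43 in WT. A slope grows with r, and the 9 were picked by r, so part of this contrast follows from that choice. Any background signal left in the intensities flattens the slope of a dim probe set, and its part in these slopes was not tested.

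Some of the 22 were close to Cd3e in 1 genotype. Il2rb had r = 0.970 in K289R and 0.725 in WT, Cd3d 0.957 and 0.790, and Klrd1 0.924 and 0.755. Zap70 had 0.910 in K289R and 0.747 in WT, and Txk 0.859 and 0.674. In WT the closer ones were Cd69 (0.703 in K289R and 0.915 in WT), Fasl (0.501 and 0.901), Cd27 (0.667 and 0.897), Xcl1 (0.573 and 0.896) and Lat (0.663 and 0.893). Whether these correlations differ between the genotypes was not tested.

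Over all 7 arrays of a genotype, Cd4, Cd2 and Thy1 had the lowest r in K289R, and these values rest on few arrays. Cd4 had r = -0.252 in K289R and 0.650 in WT. Without K289R replicate 2 the K289R value was 0.476, and without the 2 arrays farthest from the median Cd3e level it was 0.735. Cd2 had -0.0364 in K289R and 0.554 in WT, and the K289R value was 0.460 without replicate 2 and 0.749 without the 2 arrays. Thy1 had -0.0114 in K289R and 0.778 in WT. Its K289R value stayed below 0 without replicate 2, at -0.0779, and was 0.872 without the 2 arrays. Ccr9 had 0.0977 in K289R and 0.407 in WT, and Cxcr3 0.220 and 0.135. Cd8b1 had 0.658 in K289R and 0.453 in WT. Without the 2 arrays of each genotype farthest from its median Cd3e level, the Cd8b1 values were 0.869 and 0.941.

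Prf1 and Cd160 moved the other way when those arrays were left out. Prf1 had 0.254 in K289R and 0.590 in WT, with -0.182 in K289R without replicate 2. Cd160 had 0.604 in K289R and 0.525 in WT, with -0.205 in K289R without replicate 2. Over the 10 arrays above the step the lowest members were Prf1 (-0.284), Cd160 (0.250), Cxcr3 (0.268), Thy1 (0.296) and Ccr9 (0.385), while Cd4 had 0.617, Cd2 0.573 and Cd8b1 0.619. The order among the looser members thus depended on which arrays were used.

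**Figure D5:**
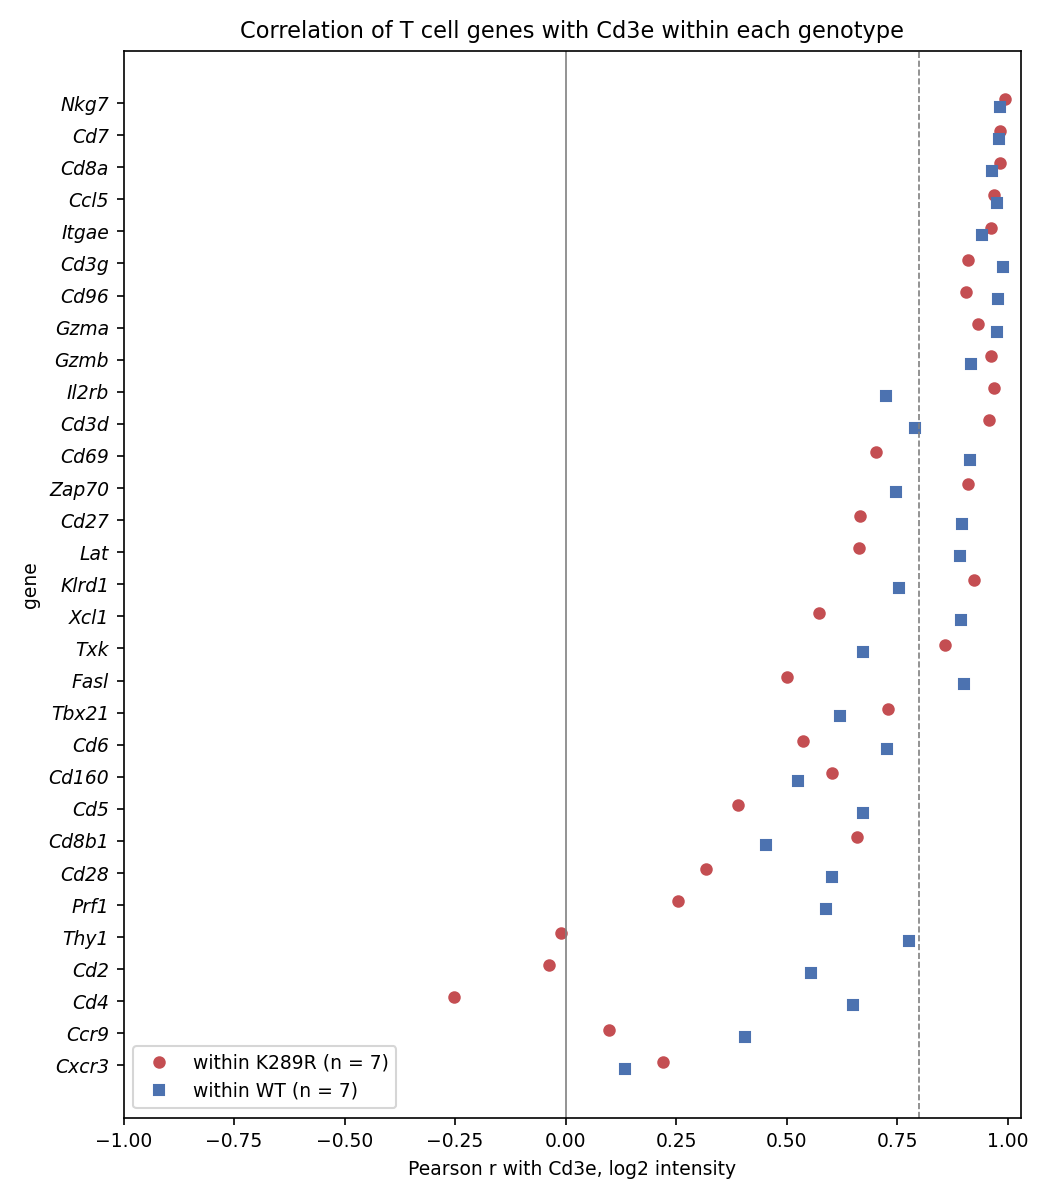
Pearson r with Cd3e of the 31 other tested members (horizontal axis), within K289R (circles) and within WT (squares), 7 arrays each, with a dashed line at 0.8. Of the 31 genes, 9 lie right of the line in both genotypes, and Cd4, Cd2 and Thy1 lie left of 0 within K289R, where Cd4 is at 0.476 without replicate 2.

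The B cell gene Cd79b, a chain of the B cell receptor, served as the partner of a different lymphocyte. Its r with Cd3e was -0.192 in K289R (exact permutation p = 0.703, adjusted 0.999, rho = -0.0714, exact p = 0.906) and 0.110 in WT (exact permutation p = 0.808, adjusted 0.993, rho = 0.214, exact p = 0.662). Without the 2 arrays farthest from the median Cd3e level it was 0.508 in K289R and 0.134 in WT. Its sign turned when single arrays were left out, to 0.376 without K289R replicate 2 and to -0.243 without WT replicate 3 and -0.0155 without WT replicate 5. Of 14 B cell genes 13 were measured, and 0 had an exact permutation p under 0.05 with Cd3e in either genotype. Their median r was -0.120 in K289R and 0.105 in WT, or 0.406 and 0.0148 without the 2 arrays. Over the arrays above the step their median was 0.456, against 0.619 for the members. The contrast with the members was thus smaller on those arrays. The summed intensity of the B cell genes ran from 2272 to 4792 in K289R and from 2313 to 3999 in WT.

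Fabp6, the ileal bile acid binding protein, marked some of the same arrays. Its log2 intensity was 10.71 in K289R replicate 2 and 9.91 in K289R replicate 7, and 12.52 in WT replicate 1 and 9.18 in WT replicate 6, against 6.09 to 6.63 on the other 10 arrays. Thus 3 of the 4 arrays low in Cd3e carried it and WT replicate 7 did not, while K289R replicate 7 carried it with a Cd3e level of 9.60, the median of its genotype. Over all 7 arrays of a genotype its r with Cd3e was -0.624 in K289R and -0.585 in WT (exact permutation p = 0.146 and 0.164), with rho of -0.321 and -0.286 (exact p = 0.498 and 0.556). Without the 2 arrays farthest from the median Cd3e level r was 0.156 in K289R and -0.845 in WT, and over the 10 arrays above the step it was -0.0118. Without the 4 arrays that carried Fabp6, 0 members were called by limma, 25 of 32 differences were above 0 and the median was 0.13. Its part in the low T cell values was not tested.

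Over all 7 arrays of each genotype, the lists of other cell types described next had lower median correlations with Cd3e than the members, and several of these medians rested on few arrays. None of these markers is at 0 on a scale that starts at an intensity of 7.40. Naive T cell genes (8 listed, 6 measured), which mark cells in follicles and blood, had a median r of -0.297 in K289R and -0.020 in WT, and the K289R median was 0.337 without the 2 arrays farthest from the median Cd3e level. Ccr7, the lymph node homing receptor, had -0.633 in K289R and -0.010 in WT, and 0.536 in K289R without the 2 arrays. Their summed intensity ran from 1265 to 1694 in K289R and from 1125 to 1547 in WT. NK and innate lymphoid genes (9 listed, 6 measured, 3 of these too dim for the test) had Ncr1, the NKp46 receptor, at -0.414 in K289R and 0.345 in WT, and at -0.0821 in K289R and -0.128 in WT without the 2 arrays. Their summed intensity ran from 513 to 612 in K289R and from 531 to 603 in WT. Macrophage and dendritic cell genes (14 of 14 measured) had medians of -0.129 in K289R and 0.182 in WT, and the K289R median was 0.767 without the 2 arrays and 0.411 without replicate 2, while over the 10 arrays above the step the median was 0.110. They had sums of 5095 to 7816 in K289R and 5215 to 7473 in WT. Epithelial genes (11 of 11 measured) had medians of -0.226 in K289R and -0.213 in WT, or -0.276 and -0.338 without the 2 arrays, and sums of 78251 to 87456 in K289R and 77982 to 87553 in WT. Smooth muscle genes (9 of 9 measured) had medians of -0.192 in K289R and -0.423 in WT, or -0.232 and -0.0257 without the 2 arrays. Their sums ran from 17398 to 23936 in K289R and from 17467 to 19538 in WT. Their differences were above 0 for 8 of 9, with a median difference of 0.23 and 0 past the limma threshold (6 at an unadjusted p under 0.05), and their part in the T cell differences was not tested.

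Of 44 further T cell genes 35 were measured and 32 tested. None passed in limma, 1 had an unadjusted p under 0.05 (Csk, the kinase that restrains Src-family kinases, -0.15 ± 0.06, SE), 27 differences were above 0 and 5 below, and the median difference was 0.10. Their median r with Cd3e was 0.311 in K289R and 0.646 in WT, and 0 had an r of at least 0.8 in both. Without the arrays farthest from the median Cd3e level the medians were 0.760 in K289R and 0.749 in WT. Over the arrays above the step the median was 0.544. The lower K289R median of this list thus rested on few arrays. Trat1, an adaptor of the T cell receptor complex singled out after its values were seen, had r = 0.876 in K289R and 0.711 in WT. Prkcq, the protein kinase C of the T cell synapse, averaged 7.65 ± 0.14 in K289R and 7.51 ± 0.10 in WT, and Ptpn22, a phosphatase that dampens receptor signals, 8.92 ± 0.20 in K289R and 8.65 ± 0.33 in WT (SD, n = 7 each).

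The members themselves had medians of 0.703 in K289R and 0.778 in WT, or 0.749 and 0.817 without the 2 arrays. Plasma cell genes (8 of 8 measured) had medians of -0.146 in K289R and 0.538 in WT, with Tnfrsf13b, the receptor TACI, at -0.130 in K289R and 0.971 in WT. The K289R median of that list was 0.819 without the 2 arrays and 0.165 without replicate 2.

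Pan-leukocyte genes (8 of 8 measured) had a median r with Cd3e of 0.215 in K289R and 0.632 in WT, with 0 and 3 of 8 at an exact permutation p under 0.05. Without the 2 arrays the medians were 0.793 in K289R and 0.724 in WT, and over the 10 arrays above the step the median was 0.592. These genes had differences above 0 for all 8, with a median of 0.17, and 0 passed in limma (1 at an unadjusted p under 0.05). Ptprc, which encodes the CD45 phosphatase of all white blood cells, averaged 9.47 ± 0.40 in K289R and 9.15 ± 0.33 in WT (SD, n = 7 each).

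Epithelial and stromal partners of intraepithelial lymphocytes were measured for 19 of 22 genes. Of 18 tested, 13 differences were above 0 and 0 passed in limma (1 at an unadjusted p under 0.05). Cd274, which encodes the ligand PD-L1, averaged 8.27 ± 0.30 in K289R and 7.88 ± 0.19 in WT (SD, n = 7 each), a difference of 0.39 ± 0.12 (SE, limma unadjusted p = 0.00414, adjusted p = 0.381). Il15ra, which presents IL-15 to lymphocytes, averaged 8.59 ± 0.16 in K289R and 8.74 ± 0.16 in WT. Cxcl9, an interferon-induced ligand of Cxcr3, averaged 9.60 ± 0.47 in K289R and 9.29 ± 0.41 in WT. Neither of the last 2 differences passed (limma, adjusted p = 0.614 and 0.671).

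The 10 genes outside the list whose deviations were most like those of Cd3e over the 14 arrays had r between 0.934 and 0.981. Zbp1, a sensor of nucleic acids that triggers cell death, was closest at 0.981, followed by Rnf213, a large ubiquitin ligase, at 0.961 and Nudt5, a nucleotide hydrolase, at 0.953. Ido1, which degrades tryptophan, had 0.950, Plaat3, a phospholipase, 0.943, and Psmb9, an immunoproteasome subunit, 0.941. Tap1, the peptide transporter of antigen presentation, and Ctsw, a protease of cytotoxic lymphocytes, had 0.939 each, Irgm2, an immunity-related GTPase, 0.937, and Usp18, which removes ISG15, 0.934. Over the 10 arrays above the step these values lay between 0.659 (Tap1) and 0.912 (Zbp1). Their differences between genotypes did not pass either, the largest being that of Ido1 at 0.66 ± 0.26 (SE, limma unadjusted p = 0.0206, adjusted p = 0.486).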

How the data were processed

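Jejunum RNA of 7 K289R and 7 WT mice was measured on Affymetrix arrays. The deposited table holds linear intensity values of 41345 probe sets, from 7.40 to 20050.3, with array medians of 168 to 174, made by the authors with Affymetrix Expression Console, per the submitters' processing notes; its version, background correction and normalization were not stated there. The labels call the arrays biological replicates and name no cage number, litter or scan day, so no batch could be set up.

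Intensities were log2-transformed with no further normalization. Names came from the platform annotation and from Entrez identifiers in the RefSeq gene table (GRCm38.p6): 23521 had 1 symbol, 1814 several and 16010 none here. A gene was its single-symbol probe set with the highest mean (22180 genes), and dim genes, with means under log2 6.25 (intensity 75.9, the 25th percentile over probe sets), were not tested, leaving 18010. Levels of different probe sets are not comparable, and background left in the values compresses differences of dim ones.

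K289R minus WT was fitted in R 4.3.3 by lmFit and eBayes of limma 3.58.1, 2-sided, Benjamini-Hochberg adjusted over all 18010 genes at 0.05; the median SE was 0.067, which the number of arrays limits. Correlations with Cd3e used Pearson's r and Spearman's rho on 7 arrays per genotype, with 2-sided exact permutation tests over all pairings, used for counts over all members and all genes. Both steps were tested on simulated data.

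Named genes were all members, up to 3 genes of each cell type list with the smallest p, and the 10 genes most like Cd3e; others are said to be singled out, as are Vil1, Cd79b, Fabp6, Ccr7 and Ncr1, which were chosen as markers with their values known. The members and lists were chosen with earlier results of these data known. Alternatives were quantile normalization, a shift to 1 median, other filters, the mean over probe sets, trended and robust eBayes, weights per array, a block on replicate number, B cell or smooth muscle list means as covariates, rank correlation, leaving out each array, and leaving out arrays whose Fabp6 log2 level exceeded 8.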

Additional observations from a re-analysis of the deposited data

Results flagged for a closer look

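In 64 sets of 7 arrays (32 genes in each genotype), 9 had 1 array far from the other 6 by Dixon's gap test at 95%. The nominal rate of this test is about 1 in 20 such sets. The share over all genes was not counted, so whether 9 is many for these arrays is not known. K289R replicate 2 was the low array for 4 genes. It had a log2 intensity of 6.85 for Cd3d (next K289R array 7.42), 7.43 for Itgae (next 8.18), 7.59 for Gzmb (next 9.23) and 9.61 for Ccl5 (next 11.18). WT replicate 3 was the high array for 4 genes, with 8.93 for Cd5 (next WT array 8.10), 8.66 for Cd6 (next 7.89), 8.31 for Thy1 (next 8.09) and 7.60 for Fasl (next 7.08). K289R replicate 7 was high for Cxcr3 alone, at 8.21 (next 7.95). The genes marked for 1 array are not independent, since they vary together across mice.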

How the results depend on the processing

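No member passed the limma threshold under any of the 25 alternatives, and the smallest adjusted p was 0.144 (Klrd1 without K289R replicate 2). The count over all genes was 8, against 14 with array weights, 5 without the arrays carrying Fabp6, and between 4 and 14 when single arrays were left out (14 without K289R replicate 5, 5 without K289R replicate 7, and 4 without K289R replicate 4, WT replicate 3 or WT replicate 4). With the replicate block 0 genes and 0 members were called. No label says that equal numbers pair the samples. Deviations of same-numbered arrays correlated at -0.15 to 0.17, and for 0 of 7 numbers were the K289R and WT arrays each other's best match. Whether same-numbered mice shared a cage, litter or scan day cannot be told from these values. The median member difference stayed between 0.08 and 0.18 when single arrays were left out, and was 0.23 with the smooth muscle covariate. Of 793 member values, 46 changed sign, over 11 members, and 21 members never did. With array weights these were Cd3d (-0.014), Cd4 (0.037), Cd6 (0.0087) and Tbx21 (-0.011). With the smooth muscle covariate they were Cd6 (0.099), Cd27 (0.040), Thy1 (0.0058), Ccr9 (-0.021) and Prf1 (-0.029). With the B cell covariate they were Cd2 (-0.018) and Cd5 (-0.0013), with quantile normalization Cd27 (0.0011), and without the Fabp6 arrays Cd2 (-0.033), Cd5 (-0.032) and Tbx21 (-0.0098). Leaving out single arrays spanned 0 for Cd4 (-0.097 to 0.070), Cd2 (-0.031 to 0.061), Cd5 (-0.023 to 0.149), Cd6 (-0.031 to 0.121), Cd27 (-0.026 to 0.047), Prf1 (-0.026 to 0.064), Xcl1 (-0.025 to 0.061) and Tbx21 (-0.021 to 0.068). The r of Cd79b with Cd3e ran from -0.497 to 0.376 within K289R and from -0.243 to 0.304 within WT when single arrays were left out. The cause of these changes was not tested. By alternatives chosen after seeing the data, 7 to 12 members had r of at least 0.8 in both genotypes when single arrays were left out, and 6 kept it under the 18 settings other than the 10 arrays above the step. The number of mice and the brightness of dim probe sets limit what these arrays can resolve.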

Other observations

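Genes of MHC class II presentation, which load peptides for CD4 T cells, moved with Cd3e. Of 7 listed 6 were measured, and r with Cd3e had a median of 0.824 in K289R and 0.909 in WT, with 4 genes at 0.8 or more in both. Without the 2 arrays farthest from the median Cd3e level the medians were 0.498 in K289R and 0.885 in WT. All 6 differences were above 0, with a median of 0.46, and 0 passed in limma (1 at an unadjusted p under 0.05). H2-DMa, a chain of the protein that helps load class II peptides, averaged 10.83 ± 0.55 in K289R and 10.25 ± 0.69 in WT (SD, n = 7 each), and had r = 0.839 in K289R and 0.923 in WT. Over the 10 arrays above the step in Cd3e its r was 0.478. Il7, a survival factor for lymphocytes singled out after its values were seen, had r = 0.953 in K289R and 0.693 in WT, and 0.844 over those 10 arrays.

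At the other end, singled out after their values were seen, Gclc, the rate-limiting enzyme of glutathione synthesis, had r = -0.925 with Cd3e over the deviations of the 14 arrays, and Akr1c14, an aldo-keto reductase, had -0.905. Over the 10 arrays above the step these were -0.601 and -0.722.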
